A study of Mus musculus with 8 samples.

Results

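Cryolesioned cortex of mice deficient in microglia-derived Il6 was compared with cryolesioned cortex of floxed mice. The 8 animals, 4 per genotype, were chosen by the group label of each array channel, out of 16 animals in all. A cryolesion is a focal injury made by freezing the cortical surface. The 4 groups of the series were floxed control, deficient control, floxed cryolesioned and deficient cryolesioned mice, with 4 biological replicates each. Floxed mice carry recognition sites for Cre recombinase in the targeted gene, and the deficient mice lack Il6 from microglia. The labels do not name the Cre driver, the strain, the age, the sex or the time after the lesion. Total RNA came from the right fronto-parietal cortex on the lesioned side, with all of its cell types, so fewer cells of a type and less RNA per cell cannot be told apart.

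Interleukin-6 is a cytokine released early after brain injury by microglia, astrocytes, neurons and infiltrating cells. It binds its receptor Il6ra, which pairs with the shared signalling chain Il6st (gp130). Janus kinases then activate the transcription factor Stat3, which induces acute-phase genes and the feedback inhibitor Socs3. The family members Lif, Osm, Il11, Cntf and Clcf1 signal through the same chain. Microglia are the resident macrophages of the brain, and microglial deletion is meant to leave Il6 in the other cell types intact. Which cell types lost Il6 here was not tested.

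The 16 animals were hybridised in pairs on 8 Agilent 2-colour arrays that form a closed loop. On 2 arrays a deficient cryolesioned animal was set directly against a floxed cryolesioned one. These were deficient 1 with floxed 3, and deficient 2 with floxed 4, with the dyes swapped. The other cryolesioned animals shared an array with a control of the other genotype. In the cryolesioned channels, 59.8% to 64.7% of probes exceeded background clearly by the scanner software's criterion ("well above background"). Differences are deficient minus floxed on the log2 scale, with the standard error (SE) of the loop fit in limma. Levels are log2 intensities per animal. The loop fit gives most weight to the 2 arrays that hold both cryolesioned groups, and the rest to the path through the controls. A fitted difference can therefore depart from the difference of the level means. By the background criterion 0 of 8 cryolesioned animals had Xist, a transcript of females, and all 8 had Y-linked transcripts. Among controls, 3 floxed and 1 deficient animal had Xist. Genotype differences in control cortex, and changes with cryolesion, are therefore mixed with sex. Because the loop fit also draws on the control arrays, its genotype difference after cryolesion is in part mixed with sex as well. The median difference of 5 sex-linked transcripts after cryolesion was 0.37 in the loop fit. It was 0.10 on the 2 arrays with both cryolesioned groups alone.

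No gene passed the test for genotype after cryolesion. Of 29362 features, limma called 0 at adjusted p under 0.05 (0%), and the smallest adjusted p was 0.563. At unadjusted p under 0.05, limma had 2529 features, 1614 higher in deficient animals (5.5%) and 915 lower (3.12%). With median centring in place of loess normalization these were 807 and 829. The levels of all 4 deficient animals lay above those of all 4 floxed animals for 915 features (3.12%), and below them for 394 (1.34%). A separate-channel fit of the same arrays called 1 of 29358 features (0.00341%), which was Cx3cr1. The median difference over all features was 0.01, and the median SE was 0.11. Differences of at least 1 log2 unit were fitted for 6 features higher and 38 lower. Because 0 features passed in the loop fit, the genes below are described by their values, and "lower" or "higher" refers to measured levels.

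Il6, the targeted gene, lay near the detection limit. Its brighter probe (A_55_P1997756) read 6.40, 6.83, 6.20 and 6.57 in floxed animals 1 to 4. It read 6.14, 6.21, 6.01 and 6.15 in deficient animals 1 to 4. The highest 3 values belonged to floxed animals, while floxed animal 3 lay just below the highest deficient animal. By the background criterion it was detected in 3 floxed animals and in 0 deficient ones. The means were 6.50 ± 0.27 and 6.13 ± 0.08 (SD, n = 4), which places the measured floxed mean 1.29-fold higher. A two-sided exact permutation test over 70 splits gave p = 0.0571, where the smallest possible p is 0.0286. With an offset of 16 in the background correction the Il6 difference was -0.67, and with processed intensities it was -2.2, each at exact permutation p = 0.0286, so both its size and its side of 0.05 depend on the processing. Without floxed animal 3 the difference was -0.47. The remaining animals then separate fully by the choice of the animal left out, so no p is read from that value. The dimmer Il6 probe (A_55_P2733612) differed by -0.12 (exact permutation p = 0.114) and was well above background in 1 floxed and 0 deficient animals. In control cortex the brighter Il6 probe differed by -0.02 (exact permutation p = 0.714).

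Cx3cr1 had the clearest separation of the genotypes. It encodes the fractalkine receptor of microglia and monocytes, and its locus is a common site for Cre insertion in microglial deletion lines. Whether such a line was used here is not given in the labels. The brighter Cx3cr1 probe (A_55_P2007964) read 12.18, 12.14, 12.19 and 12.48 in floxed animals 1 to 4. It read 11.52, 11.31, 11.31 and 11.66 in deficient animals 1 to 4. All 4 deficient animals thus lay below all 4 floxed animals. The fitted Cx3cr1 difference was -0.85 ± 0.10 (SE), with adjusted p = 0.563 in limma.

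The dimmer Cx3cr1 probe (A_52_P99810) had means of 9.40 ± 0.22 (SD, n = 4) in floxed and 8.54 ± 0.22 in deficient animals. Both probes gave an exact permutation p of 0.0286, the smallest that 4 animals against 4 allow. In the separate-channel fit the Cx3cr1 difference was -0.81, with limma adjusted p = 0.000295. The direct ratios of Cx3cr1 were -0.67 and -1.18. In control cortex the brighter probe was lower in deficient animals by a similar amount, with 11.95 ± 0.19 in floxed and 10.89 ± 0.17 in deficient animals. The fitted Cx3cr1 difference in controls was -1.0 ± 0.10, and the change of this difference with cryolesion was 0.15 ± 0.16 (limma adjusted p = 1). Its ligand Cx3cl1, fractalkine, read 14.30 ± 0.29 in floxed and 14.56 ± 0.13 in deficient animals, a fitted difference of 0.28 ± 0.32.

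**Figure D1:**
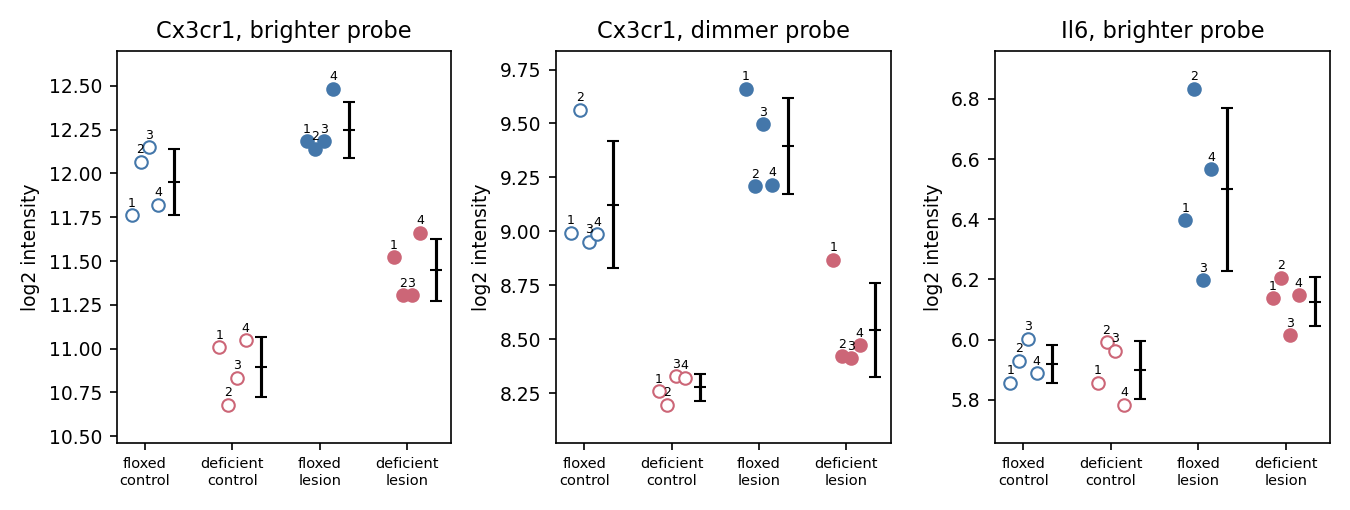
Log2 intensity of both Cx3cr1 probes and of the brighter Il6 probe in each of the 16 animals, numbered within groups of 4 (blue floxed, red deficient, open control, filled cryolesioned). Black bars give mean and SD. Cx3cr1 separates the genotypes in both states, while Il6 is highest in floxed lesioned animals 1, 2 and 4, with floxed animal 3 (6.20) inside the deficient range.

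Genes next to Cx3cr1 on chromosome 9 and next to Il6 on chromosome 5 were read for comparison. Among the 20 nearest measured named genes of Cx3cr1, 1 was higher and 2 were lower at unadjusted p under 0.05, and their median difference was 0.04. For Il6 these counts were 1 and 1, with a median of 0.02. Over all features 5.5% were higher and 3.12% lower at that threshold.

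Among the ligands and receptors of the IL-6 family, 15 of 16 members were measurable. At unadjusted p under 0.05, 0 were higher and 2 lower, Lif and Il11, beside 5.5% and 3.12% of all features. The median difference was -0.10, and it was also -0.10 in control cortex. Il11, a gp130 cytokine, read 9.22, 9.42, 7.29 and 8.71 in floxed and 7.62, 7.49, 6.82 and 7.59 in deficient animals. Floxed animals 1, 2 and 4 lay above every deficient animal, and floxed animal 3 lay among them. Its fitted difference was -0.82 ± 0.32, with direct ratios of 0.33 and -1.22. Lif, leukaemia inhibitory factor, differed by -0.42 ± 0.14. The receptor genes were closer to 0. Il6ra differed by -0.14 ± 0.23, the shared chain Il6st by -0.04 ± 0.15 and the oncostatin M receptor Osmr by -0.10 ± 0.18.

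The signalling genes downstream of the receptor had a median near 0 in the loop fit. Of 19 JAK, STAT and feedback genes, 0 were higher and 1 lower at unadjusted p under 0.05, beside 5.5% and 3.12% of all features. Their median was -0.02. The median was -0.17 in the separate-channel fit. Without the array of deficient 1 and floxed 3, 6 of 19 were lower, beside 3.91% of all features, and the median was -0.14. With any other single array left out, 1 of 19 was lower. Without the array of deficient 2 and floxed 4 the median was -0.06, and 1.02% of all features were lower. The mean centred level of the list was 0.24, 0.22, -0.22 and 0.16 in floxed animals, and 0.04, -0.08, -0.25 and -0.12 in deficient animals. Floxed animals 1, 2 and 4 were above every deficient animal, and floxed animal 3 was not. Stat3 differed by 0.08 ± 0.17. Socs3 read 11.94, 12.43, 10.97 and 12.02 in floxed and 11.69, 11.60, 10.39 and 11.03 in deficient animals, and the groups overlapped. Its fitted difference was 0.01 ± 0.22, although its level means differed more widely, and its direct ratios were 0.73 and -0.42. Cish, a STAT5-induced feedback inhibitor, was the lower member at -0.44 ± 0.09, with direct ratios of -0.43 and -0.38.

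Acute-phase and STAT3-responsive genes lay mostly below 0. Of 16 measured members, 8 were lower and 0 higher at unadjusted p under 0.05, beside 3.12% and 5.5% of all features. Their median difference was -0.31, beside -0.13 in control cortex, and 14 of 16 were negative. Saa3, an inducible serum amyloid A, read 8.29, 9.38, 9.77 and 10.30 in floxed and 8.68, 9.26, 8.67 and 8.77 in deficient animals. Floxed animals 2, 3 and 4 were above all deficient animals, and floxed animal 1 was below them. The fitted difference of Saa3 was -0.85 ± 0.20, with direct ratios of -1.09 and -1.04.

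Serpina3n, an acute-phase protease inhibitor of reactive astrocytes, differed by -0.61 ± 0.25. Its direct ratios had opposite signs, 0.47 and -1.32. The metalloproteinase inhibitor Timp1 differed by -0.57 ± 0.22, and haptoglobin, Hp, by -0.53 ± 0.15. The iron-scavenging lipocalin Lcn2 differed by -0.30 ± 0.09, but its levels overlapped widely, from 11.41 to 12.72 in floxed and from 10.41 to 12.35 in deficient animals. Hpx, hemopexin, was the member of this list whose deficient levels (6.27 to 6.41) all lay below the floxed levels (6.55 to 6.83). These Hpx levels lie in the range of the brighter Il6 probe, near the detection limit.

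Promoter sequence was searched for the palindrome TTCNNNGAA, which STAT dimers bind, in RefSeq windows of 300 bases around gene starts (GRCm38.p6, 250 bases before to 50 after, both strands). It occurred in 9.55% of 27025 genes with a window. It occurred in 3 of 13 acute-phase genes with a window (Fgl2, Gfap and Steap4) and in 2 of 16 JAK, STAT and feedback genes (Cish and Socs3). Of these 5 genes, Cish alone had an unadjusted p under 0.05. The windows of Gfap and Socs3 are shown because these are the best known STAT3 targets of the lists, with the matching letters in capitals. Gfap lies on the minus strand at chr11:102897151-102897450 and Socs3 on the minus strand at chr11:117969317-117969616. A match is a description of the letters and not evidence of binding.
Gfap: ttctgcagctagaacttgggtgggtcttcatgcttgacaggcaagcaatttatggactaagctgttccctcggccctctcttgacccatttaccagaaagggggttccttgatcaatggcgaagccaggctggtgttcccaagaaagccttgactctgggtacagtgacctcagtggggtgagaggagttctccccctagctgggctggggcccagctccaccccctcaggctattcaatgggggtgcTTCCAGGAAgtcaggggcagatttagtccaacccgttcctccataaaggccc
Socs3: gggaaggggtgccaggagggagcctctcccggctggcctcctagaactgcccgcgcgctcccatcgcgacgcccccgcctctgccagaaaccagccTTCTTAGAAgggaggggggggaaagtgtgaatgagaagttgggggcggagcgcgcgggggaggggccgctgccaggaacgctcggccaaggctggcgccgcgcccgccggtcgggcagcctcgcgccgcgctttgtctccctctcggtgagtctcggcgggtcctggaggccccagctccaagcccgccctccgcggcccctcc

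Homeostatic microglial genes had a median near 0, with a subset of lower members. Of 21 members, 1 was higher and 3 were lower at unadjusted p under 0.05, beside 5.5% and 3.12% of all features. Their median was 0.00, and -0.30 in control cortex. The lower members were Cx3cr1, the Fc receptor-like Fcrls at -0.25 ± 0.08 and the complement subunit C1qb at -0.33 ± 0.09. Both Fcrls (-0.39 ± 0.08) and C1qb (-0.59 ± 0.09) were also lower in deficient controls. The growth factor receptor Csf1r was the higher member at 0.23 ± 0.09. Tmem119 (0.00 ± 0.17), the purinergic receptor P2ry12 (0.28 ± 0.31) and Aif1 (-0.05 ± 0.23) overlapped between genotypes. The levels of all 4 deficient animals lay below those of all 4 floxed animals for 5 of the 21 genes, beside 1.34% of all features. These were Cx3cr1, Fcrls, C1qb, the complement subunit C1qc (-0.17 ± 0.10) and the adaptor Tyrobp (-0.40 ± 0.21).

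Genes of activated phagocytes lay lower in deficient animals. Of 23 measured members, 8 were lower and 1 higher at unadjusted p under 0.05, beside 3.12% and 5.5% of all features. In all, 20 were negative and the median was -0.34, beside -0.23 in control cortex. Without the array of deficient 1 and floxed 3, 17 were lower, and without the array of deficient 2 and floxed 4, 5 were. Lyz2, the myeloid lysozyme, read 7.07, 7.42, 6.95 and 7.54 in floxed and 6.60, 6.76, 6.61 and 6.93 in deficient animals, with no overlap. Its difference was -0.55 ± 0.11. The Lyz2 levels of deficient animals 1 to 3 lie in the range of the brighter Il6 probe, near the detection limit. The IgG receptor Fcgr1 differed by -0.34 ± 0.07 and the inhibitory Fcgr2b by -0.33 ± 0.12, again with no overlap.

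Spp1, osteopontin, read 13.41, 13.54, 9.90 and 11.23 in floxed and 10.05, 9.80, 10.11 and 10.48 in deficient animals. Floxed animals 1, 2 and 4 were above all deficient animals, and floxed animal 3 was among them. Its difference was -1.47 ± 0.61. Lgals3, galectin-3, had the same arrangement, at 11.80, 11.69, 9.71 and 11.10 against 9.77, 9.92, 9.29 and 10.14, and differed by -0.86 ± 0.23. Apoe was the higher member at 0.32 ± 0.08.

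Among single genes of innate immunity, Tspo, Casp4 and Fcgr4 were among the 15 lower named genes with the smallest unadjusted p, so their separation is described without a test. Tspo, an outer mitochondrial membrane protein used as an imaging target for activated microglia, read 10.23, 10.23, 9.59 and 10.08 in floxed animals. It read 9.14, 9.34, 9.41 and 9.52 in deficient animals, all below the floxed ones. Its difference was -0.59 ± 0.08 after cryolesion and -0.47 ± 0.08 in controls. Casp4, the caspase of the non-canonical inflammasome, read 7.85, 8.05, 7.83 and 8.18 in floxed and 7.33, 7.63, 7.48 and 7.59 in deficient animals. Its groups did not overlap either, and the difference was -0.53 ± 0.08. Fcgr4, an activating IgG receptor, differed by -0.55 ± 0.10, also without overlap. Ifi27l2a, an interferon-induced gene, differed by -0.57 ± 0.11 after cryolesion and by -0.99 ± 0.11 in controls.

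Chemokines were lower in 6 and higher in 1 of 18 measured members at unadjusted p under 0.05, beside 3.12% and 5.5% of all features. Their median was -0.22, and -0.16 in control cortex. Ccl2, which recruits monocytes, read 11.90, 12.16, 11.10 and 11.65 in floxed and 11.05, 11.16, 11.00 and 11.08 in deficient animals. Its difference was -0.29 ± 0.11. Ccl4 differed by -0.79 ± 0.32, Ccl3 by -0.66 ± 0.27 and Ccl7 by -0.40 ± 0.10. The direct ratios were -0.33 and -0.28 for Ccl4, 0.01 and -0.57 for Ccl3, and -0.57 and -0.10 for Ccl7. For 0 of the 18 members did the levels of all deficient animals lie below, or above, those of all floxed animals. Over all features these shares were 1.34% and 3.12%. Cxcl12, which is constitutive in brain, was the higher member at 0.35 ± 0.12.

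Of 21 other cytokines and receptors, 4 were lower and 0 higher at unadjusted p under 0.05, beside 3.12% and 5.5% of all features. Their median was -0.13, and -0.21 in control cortex. The decoy receptor Il1r2 differed by -0.58 ± 0.19, with no overlap, and the alarmin Il33 by -0.58 ± 0.19. Il1b (-0.21 ± 0.18) and Tnf (-0.04 ± 0.12) overlapped. Of 17 complement genes 4 were lower and 0 higher, beside the same shares of all features, C3 among them at -0.62 ± 0.13. Their median was -0.18, and -0.08 in control cortex. Of 26 interferon-stimulated genes 3 were lower and 0 higher, beside the same shares. Their median was -0.12, and -0.34 in control cortex.

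Markers of infiltrating cells were also measured in this whole-tissue RNA. Of 16 monocyte and border macrophage markers, 2 were lower and 0 higher at unadjusted p under 0.05, beside 3.12% and 5.5% of all features. Their median was -0.35, and -0.05 in control cortex. The summed linear level of these markers ran from 7770 to 14718 in floxed and from 6346 to 9379 in deficient animals. Of 7 measured neutrophil markers, S100a8 (-0.84 ± 0.31) and S100a9 (-0.83 ± 0.27) were lower and 0 higher, beside the same shares of all features. The summed neutrophil level ran from 1700 to 4634 in floxed and from 1389 to 2554 in deficient animals. The part of these cells in the differences of phagocyte and chemokine genes was not tested.

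Reactive astrocyte genes had 6 lower and 0 higher members among 24 at unadjusted p under 0.05, beside 3.12% and 5.5% of all features. In all, 22 were negative, and the median was -0.31, beside -0.18 in control cortex. The count of lower members was 17 without the array of deficient 1 and floxed 3, and 1 without the array of deficient 2 and floxed 4. Several of the 6 also stand in the acute-phase list. Gfap, the astrocyte intermediate filament, read 14.00, 13.68, 12.83 and 13.38 in floxed and 13.07, 12.89, 12.62 and 12.72 in deficient animals. Floxed animals 1, 2 and 4 were above all deficient animals. The Gfap difference was -0.36 ± 0.22 and that of Vim, vimentin, was -0.32 ± 0.18. Cd109 differed by -0.45 ± 0.10, with no overlap. Homeostatic astrocyte genes lay slightly above 0, with a median of 0.10 over 18 genes. Aldoc (0.35 ± 0.08) and Fgfr3 (0.26 ± 0.11) were the 2 higher members at that threshold, and 0 were lower.

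**Figure D2:**
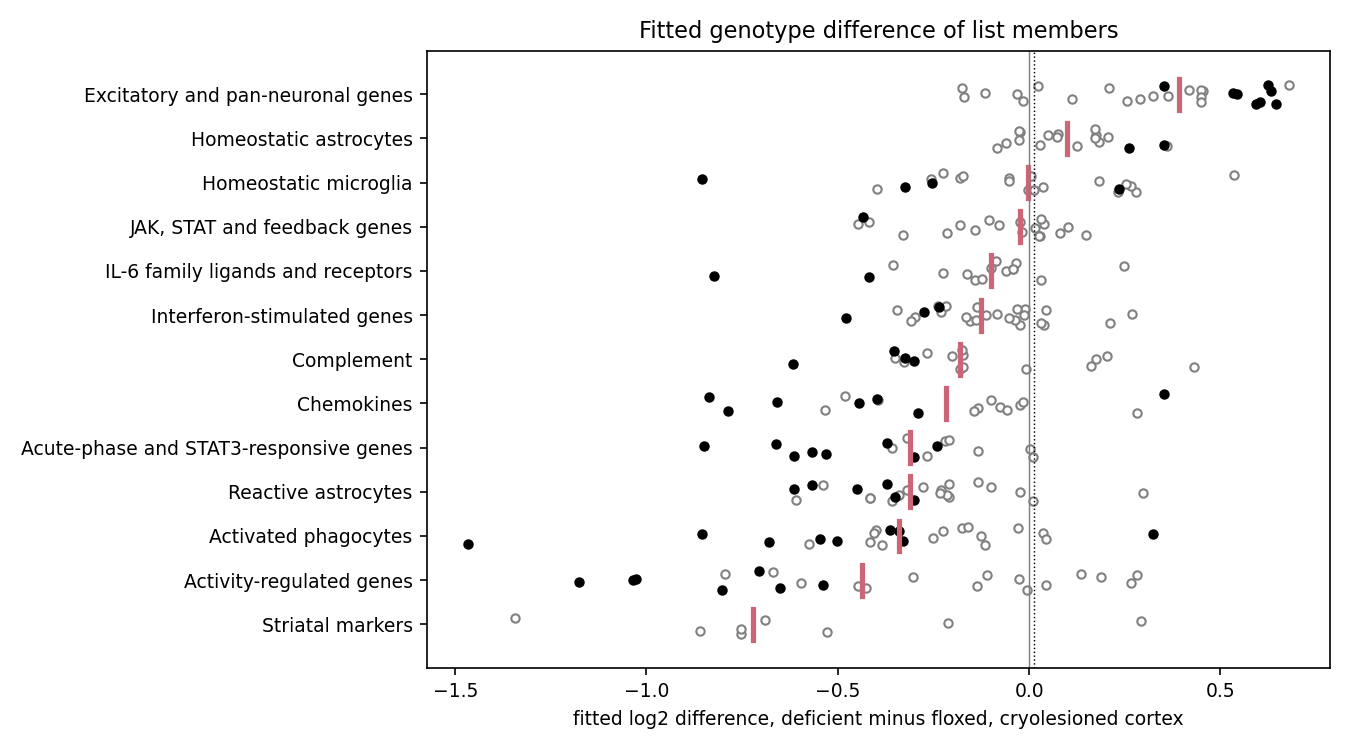
Fitted log2 difference (deficient minus floxed, cryolesioned cortex) of each measured member of 13 gene lists, 1 point per gene. Filled points have unadjusted p under 0.05, red bars are list medians and the dotted line is the median of all features. Medians run from 0.39 for neuronal genes to -0.44 for activity-regulated genes, and to -0.72 for striatal markers, none of which has a filled point and whose median turns to 0.23 without the array of deficient 1 and floxed 3.

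Neuronal genes showed the opposite sign. Of 26 measured excitatory and pan-neuronal genes, 8 were higher and 0 lower at unadjusted p under 0.05, beside 5.5% and 3.12% of all features. Their median was 0.39, beside 0.21 in control cortex, and 21 were positive. Camk2a, a kinase of excitatory synapses, read 14.18, 14.28, 14.40 and 14.55 in floxed and 15.07, 15.31, 14.33 and 14.57 in deficient animals. Deficient animals 1, 2 and 4 were above all floxed animals, animal 4 only just, and deficient animal 3 lay among them. Its difference was 0.60 ± 0.13. The glutamate receptor subunits Grin1 (0.53 ± 0.16) and Grin2b (0.63 ± 0.19), the vesicular transporter Slc17a7 (0.64 ± 0.18) and the dendritic protein Map2 (0.35 ± 0.09) were also among the 8.

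The 15 higher named genes with the smallest unadjusted p were led by Rasl10a, a Ras-like GTPase, at 0.83 ± 0.09. Its levels ran from 10.36 to 11.23 in floxed animals and read 11.83, 11.81, 11.27 and 11.21 in deficient animals, with a slight overlap. Dlgap3, a postsynaptic scaffold, differed by 0.61 ± 0.08, the potassium channel Kcnh3 by 0.69 ± 0.10 and the kainate receptor subunit Grik5 by 0.56 ± 0.08. Dlgap3 levels overlapped, with deficient animals 3 and 4 (14.02 and 14.07) inside the floxed range of 13.91 to 14.09. Its level means differed by 0.34, less than the fitted value. Psd, an Arf6 exchange factor, read 14.63, 14.69, 14.69 and 14.74 in floxed and 15.31, 15.53, 14.85 and 14.91 in deficient animals, with no overlap. Its difference was 0.64 ± 0.11. The junctional protein Ajm1 (0.65 ± 0.09), the growth factor Ptn (0.47 ± 0.08), the HNK-1 glucuronyltransferase B3gat1 (0.55 ± 0.09) and the Polycomb protein Cbx6 (0.50 ± 0.08) did not overlap either. Trank1 (0.62 ± 0.09), Crtc1 (0.48 ± 0.08), Snph (0.45 ± 0.08), Reep6 (0.47 ± 0.08), Rundc3a (0.42 ± 0.07) and Shroom2 (0.56 ± 0.10) completed the group, with overlap.

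Activity-regulated genes, which neurons induce within minutes of firing, had 7 lower and 0 higher members among 22 at unadjusted p under 0.05, beside 3.12% and 5.5% of all features. Their median was -0.44, beside -0.01 in control cortex, and 17 were negative. Arc, a regulator of synaptic glutamate receptors, read 13.61, 13.94, 12.70 and 13.62 in floxed and 11.55, 12.81, 12.96 and 11.40 in deficient animals. Floxed animals 1, 2 and 4 were above all deficient animals. Its difference was -1.18 ± 0.17, with direct ratios of -1.14 and -0.81. The nuclear receptor Nr4a1 read 12.04, 11.89, 12.85 and 12.09 in floxed and 11.19, 11.15, 13.08 and 11.16 in deficient animals. Deficient animal 3 was the highest of all 8, and the other deficient animals were the lowest.

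Nr4a1 differed by -1.04 ± 0.31 after cryolesion and by 0.93 ± 0.31 in controls. The change of its difference with cryolesion was -1.96 ± 0.50, which did not pass in limma (adjusted p = 1). Fos (-0.80 ± 0.34), Fosb (-1.03 ± 0.35), Egr1 (-0.54 ± 0.22), Npas4 (-0.71 ± 0.16) and Dusp1 (-0.65 ± 0.17) made up the 7 lower members.

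The remaining lower named genes by unadjusted p were of mixed function. Spidr, a scaffold of DNA repair, differed by -0.73 ± 0.12 and Snhg1, a host of small nucleolar RNAs, by -0.49 ± 0.08. Snhg1 and the endosomal protein Plekhf1 (-0.49 ± 0.09) did not overlap between genotypes. Cd24a, a surface glycoprotein, differed by -0.85 ± 0.16, the collagen-binding integrin Itga1 by -0.76 ± 0.14 and the transcription factor Zic1 by -0.70 ± 0.13. Vpreb2 (-0.73 ± 0.13), Ak6 (-0.49 ± 0.09) and Slc43a3 (-0.47 ± 0.09) overlapped.

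**Figure D3:**
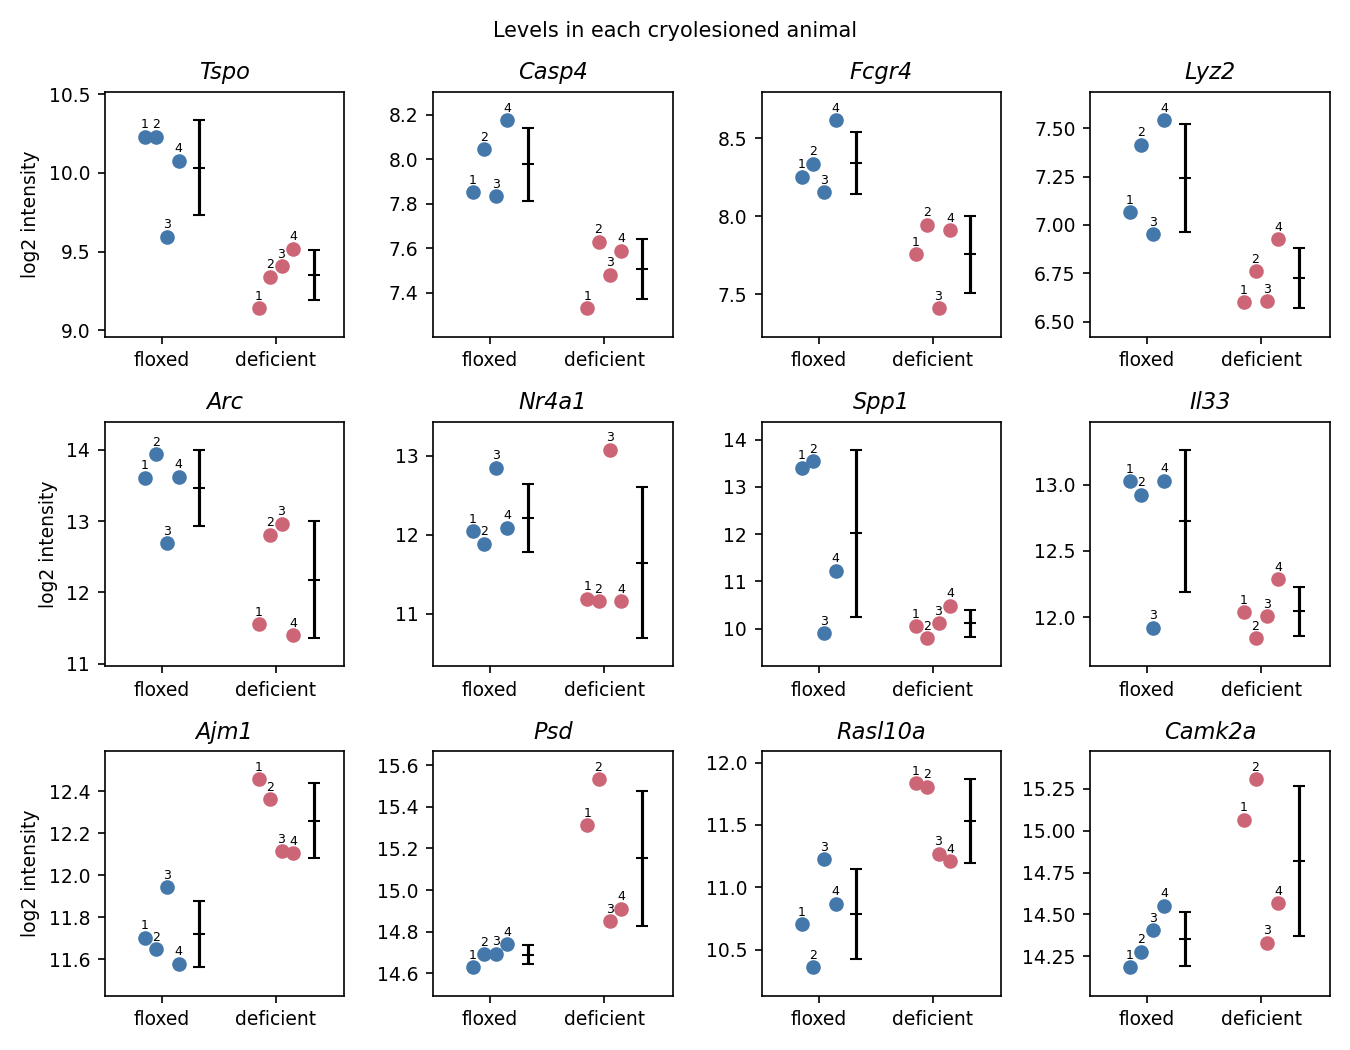
Log2 intensity of 12 genes in each cryolesioned animal, numbered 1 to 4 within the floxed (blue) and deficient (red) groups, with mean and SD in black. Tspo, Casp4, Fcgr4, Lyz2, Ajm1 and Psd do not overlap, while floxed animal 3 lies near the deficient animals for Arc, Spp1 (9.90) and Il33 (11.92). The Lyz2 levels of deficient animals 1 to 3 lie in the range of the brighter Il6 probe, near the detection limit.

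Striatal markers, which should be scarce in a cortical dissection, varied widely within each genotype. Their mean centred level was -0.05, -1.22, 0.74 and 0.33 in floxed and -1.04, -0.86, 1.10 and 1.00 in deficient animals. Their summed linear level ran from 20127 to 73349 in floxed and from 26369 to 88918 in deficient animals. All 8 markers were measurable, 0 had an unadjusted p under 0.05 and the median difference was -0.72. The sign of this median rests on 1 array, since it was 0.23 without the array of deficient 1 and floxed 3. It was -1.71 on the 2 direct arrays alone and -0.04 in the separate-channel fit. Cortex-defining markers were present in every animal, at a summed level of 9697 to 10929 in floxed and 10691 to 15436 in deficient animals. The mean centred level of the neuronal list was 0.03, -0.05, -0.30 and -0.11 in floxed and 0.27, 0.35, -0.17 and -0.02 in deficient animals. Deficient animals 1 and 2, with low striatal levels, were above all floxed animals, and deficient animals 3 and 4, with high striatal levels, lay among them. Floxed animal 2, with the lowest striatal level of all 8, had a lower neuronal level than floxed animal 1. The part of the dissection in the neuronal difference was not tested beyond 1 added fit. With the striatal level of each animal as a covariate, chosen after seeing the data, the neuronal median was 0.30 and the activity-regulated median was -0.52.

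Floxed animal 3 stood apart from the other floxed animals for most injury genes. The mean centred level of reactive astrocyte genes was 0.47, 0.70, -0.44 and 0.41 in floxed and -0.11, -0.09, -0.68 and -0.26 in deficient animals. For activated phagocytes it was 0.59, 0.59, -0.33 and 0.18 in floxed, and between -0.35 and -0.20 in deficient animals. In both lists floxed animals 1, 2 and 4 were above every deficient animal and floxed animal 3 was not. For acute-phase genes, floxed animal 3 (0.01) was the lowest floxed animal but lay above all deficient animals. The Cx3cr1 level of floxed animal 3 (12.19) lay with the other floxed animals. Whether its label or its lesion differed from theirs cannot be told from the files, and every floxed mean given here includes it.

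**Figure D4:**
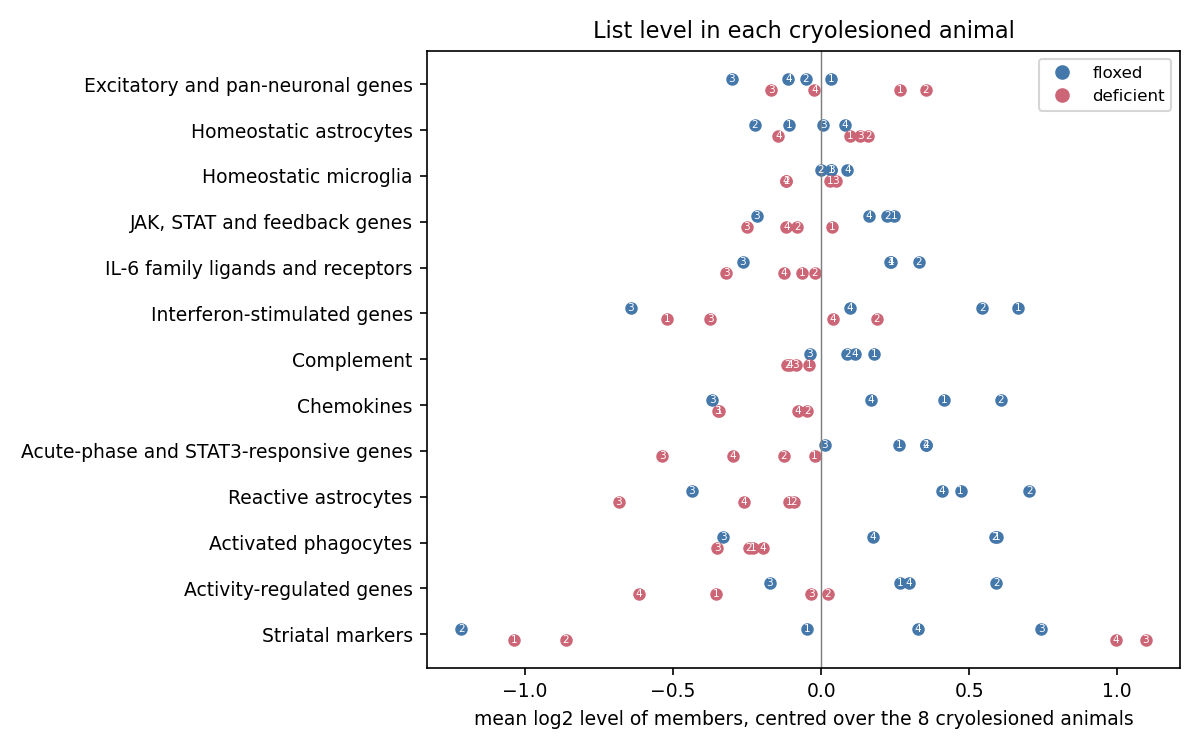
Mean log2 level of the members of 13 gene lists in each cryolesioned animal, centred over the 8 animals, with animal numbers inside the points. Floxed animal 3 lies at -0.44 for reactive astrocytes, away from floxed animals 1, 2 and 4, and striatal markers spread from -1.22 to 1.10.

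The direct arrays also differed from each other. On the array of deficient 1 and floxed 3 the median ratio was 0.28 for reactive astrocyte genes, 0.10 for activated phagocytes and 0.11 for acute-phase genes. On the array of deficient 2 and floxed 4 these medians were -0.42, -0.45 and -0.46. Neuronal genes were positive on both arrays, with medians of 0.67 and 0.53. Each array holds 1 animal per genotype, so the animal behind a difference between the arrays cannot be told apart.

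**Figure D5:**
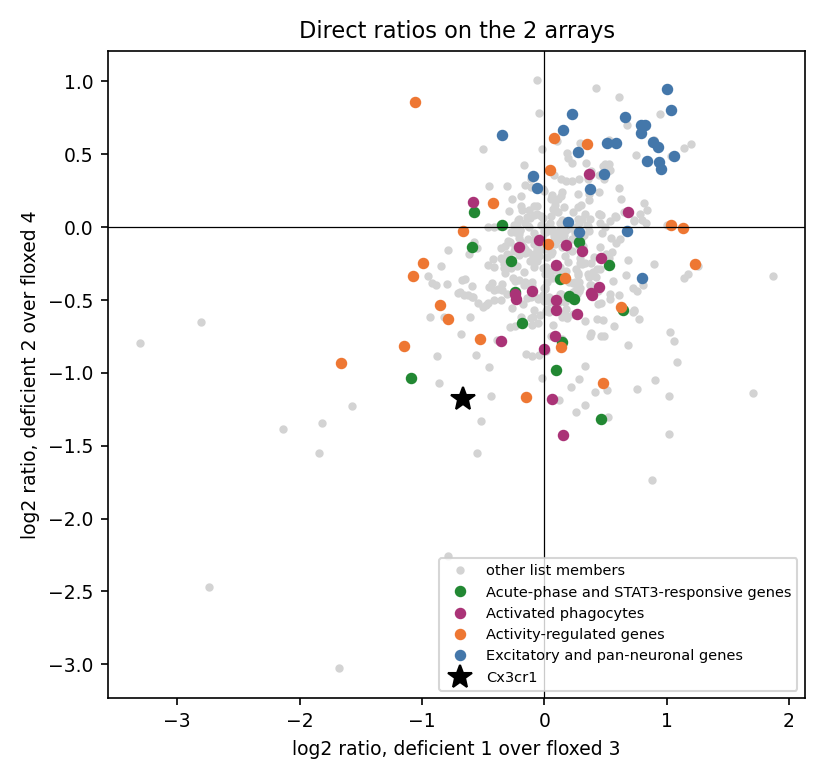
Direct log2 ratios of gene list members on the 2 arrays that hold both cryolesioned groups, deficient 1 over floxed 3 (horizontal) and deficient 2 over floxed 4 (vertical). Neuronal genes lie mostly above 0 on both axes, with medians of 0.67 and 0.53, and Cx3cr1 lies below 0 on both, while phagocyte and acute-phase genes lie below 0 mainly on the vertical axis.

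Each list was therefore also fitted without either direct array. Without the array of deficient 1 and floxed 3, 2.18% of all features were higher and 3.91% lower at unadjusted p under 0.05. There, 9 of 16 acute-phase genes and 10 of 22 activity-regulated genes were lower, beside the counts given above for astrocyte and phagocyte genes. The neuronal genes then had 1 of 26 higher, with a median of 0.23. Without the array of deficient 2 and floxed 4, 1.32% of features were higher and 1.02% lower. There, 1 of 16 acute-phase and 3 of 22 activity-regulated genes were lower, and 4 of 26 neuronal genes were higher. The medians of these 5 lists (astrocyte, phagocyte, acute-phase, activity-regulated and neuronal) kept their sign in both fits, and 0 features passed at adjusted p under 0.05 in limma in either.

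Separate-channel fits without each of the 8 cryolesioned animals in turn were added after seeing the data. They called 818 features without floxed animal 3, of which 216 were higher and 602 lower, and 91 without deficient animal 3. Each of the other 6 fits called 1 feature. The 818 calls come from leaving out the floxed animal that lay nearest to the deficient ones, so they support no statement on genotype.

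The genes that cryolesion raised or lowered most in floxed animals share those animals with the genotype comparison, so their values are set side by side only. Xist was found in 3 floxed controls and in 0 floxed cryolesioned animals, so these responses are also mixed with sex. Among the 20 largest rises, Timp1 rose by 4.88 with the lesion in floxed animals and Spp1 by 4.12, beside genotype differences of -0.57 and -1.47. Hmox1, the heme-degrading enzyme, rose by 4.17 beside a genotype difference of -0.47, and the interferon-induced chemokine Cxcl10 by 4.18 beside -0.02. Among the 10 largest falls, the proteoglycan Bcan fell by 1.50 and the kinase Camkk2 by 1.68, beside genotype differences of 0.52 and 0.51.

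Whether the genotype difference itself changed with cryolesion was tested by the interaction in the same fit. Sex was unequal between the control genotypes, with Xist in 3 floxed and 1 deficient animal, so the interaction is mixed with sex. Limma called 0 of 29362 features (0%), while 972 had an unadjusted p under 0.05. Of the single genes, Dlgap3 had an interaction of 0.89 ± 0.13, Arc of -1.02 ± 0.28 and Tspo of -0.13 ± 0.13, none of which passed. The Dlgap3 level means of controls were 14.555 in floxed and 14.541 in deficient animals, beside a fitted control difference of -0.28.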

How the data were processed

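Per the file headers, the deposited scanner files come from Agilent Feature Extraction 10.7.3.1 and hold unnormalized median intensity per spot in Cy5 and Cy3. The authors also deposited a table of log2 ratios, whose normalization is unstated. Its columns correlated at 0.966 to 0.977 with the loess ratios used here, with slopes of 1.11 to 1.25, so their direction is settled and their scaling is unknown. The log10 ratio column deposited by the authors was used only to check direction.

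Median intensities were background-corrected (normexp, offset 50) and loess-normalized within arrays. Control spots and outlier spots (115 to 194 per array) were left out, and 0 spots were saturated. Probes well above background in at least 4 of 16 channels were kept (37352). Of 56605 probes, 32994 were named through RefSeq accessions (GRCm38.p6) and 23611 were not. The brightest probe stood for a gene. This gave 29362 features, 16852 of them named genes; 4 were fitted on fewer than 8 arrays. Ratios were fitted in limma 3.58.1 (R 4.3.3) with group coefficients and a dye intercept, 4 residual degrees of freedom, a prior of 2.95 and Benjamini-Hochberg adjustment over all features. Levels per animal were also Aquantile-normalized between arrays. The number of arrays limits the precision.

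The animals and the 33 gene lists were chosen with earlier results of these data known. Named genes were Il6, Cx3cr1 and its ligand; in each direction the called genes, or else the 15 with the smallest unadjusted p; from each list up to 3 members with the smallest p; the largest cryolesion responses in floxed animals; and the 10 neighbours on either side of Il6 and Cx3cr1. Other list members in the text were chosen after their values were seen. The fit was tested on simulated data. Alternatives covered offset, normalization, filter, probe choice, model, dye, sex, replicate block, priors, weights and leaving out each array. The replicate numbers were checked and were not used to pair the animals in the main fit.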

Additional observations from a re-analysis of the deposited data

Results flagged for a closer look

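Within the groups of 4 cryolesioned animals, 130 sets of values were checked for a single animal far from the other 3, and chance would mark about 1 in 20. Floxed animal 4 was marked for Grik5 (11.20, the lowest), Snph (13.15, the highest) and Cx3cr1 (12.48, the highest). Deficient animal 4 was marked for Spidr (8.55, the highest). Floxed animal 3 was marked for the mean centred level of IL-6 family ligands and receptors (-0.27, the lowest), and deficient animal 3 for sex-linked transcripts (-0.49, the lowest). In all, 6 sets were marked.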

How the results depend on the processing

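The call count for genotype after cryolesion stayed at 0 under every alternative to the loop fit, including each array left out. It was 1 (Cx3cr1) in the separate-channel fit and 1 with a replicate block added to it. Separate-channel fits without 1 cryolesioned animal, added after seeing the data, called from 1 to 818, with 818 without floxed animal 3, 91 without deficient animal 3 and 1 without any of the other 6. The loop fit with a replicate block has 2 residual degrees of freedom, called 0, and had 715 higher and 757 lower features at unadjusted p under 0.05. Same-numbered animals deviated together with correlations of 0.283, 0.302, 0.529 and 0.003. With the dye effect removed these were 0.006, 0.3, 0.392 and -0.106. Whether the numbers pair the animals cannot be told from these values, and the main fit did not use them as a pairing. Features at unadjusted p under 0.05 ranged from 387 to 3247 higher and from 300 to 1645 lower as single arrays were left out. They were 2750 and 1358 with array weights, 2660 and 1321 on the 2 direct arrays alone, and 1176 and 1083 with the striatal covariate. Sex as a covariate gave 3142 and 1645, as did leaving out the array of floxed control 2 and deficient control 2. The interaction had from 0 to 1 call without single arrays. The Il6 difference was -0.67 with an offset of 16, -0.36 without normalization between arrays and -2.2 with processed intensities, each at exact permutation p = 0.0286. Without single animals it ranged from -0.47 to -0.26. Of 480 refits of 30 named genes all kept their direction. These genes were Cx3cr1 and those picked by the smallest unadjusted p, and the refits share the same arrays. Kept direction was thus likely from the start and is no separate support. The medians of interferon-stimulated genes (0.11) and antigen presentation genes (0.02) were positive on the direct arrays alone.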
